A study of Bos taurus with 8 samples.

Results

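The genes described here encode the respiratory chain of mitochondria, from complex I to the ATP synthase, in bovine conceptuses at day 15. Members were taken from the deposited table by name: symbols starting with NDUF, UQCR or ATP5, symbols starting with COX followed by a digit from 4 to 8, the SDH genes A to D, CYC1 and CYCS, together with every gene on the mitochondrial chromosome. This gave 109 of 15267 genes. Of these, 90 were nuclear: 81 code for subunits, 7 for complex I assembly factors named NDUFAF, 1 for the electron carrier cytochrome c (CYCS) and 1 for the ATP synthase inhibitor ATP5IF1. The remaining 19 were mitochondrially encoded, 13 for proteins, 2 for rRNAs and 4 for tRNAs. Among the subunits, 37 nuclear and 7 mitochondrial genes belong to complex I, 4 nuclear genes to complex II, 9 nuclear and 1 mitochondrial to complex III, 14 nuclear and 3 mitochondrial to complex IV, and 17 nuclear and 2 mitochondrial to complex V. The table leaves 6 of the mitochondrial genes unnamed, and their kind was read from RefSeq entries of assembly ARS-UCD2.0 with the same start and end. All 13 named mitochondrial genes had identical positions in that assembly.

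The respiratory chain oxidises NADH at complex I and succinate at complex II, passes electrons through coenzyme Q, complex III and cytochrome c to oxygen at complex IV, and uses the resulting proton gradient to make ATP at complex V. Complex II is encoded wholly in the nucleus, whereas the other complexes combine nuclear subunits with core subunits encoded by mitochondrial DNA. Mitochondrial genes are transcribed as long RNAs from each strand of the circular genome and then cut apart, so their mature levels depend on processing and decay as well as on transcription. Elongation of the bovine conceptus is a phase of rapid trophoblast growth before attachment.

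RNA was sequenced from 8 conceptus-half samples of the filamentous stage at day 15, obtained through in vitro embryo development. The 4 control samples, titled 10, 20, 3M and 4M, are compared with 4 samples titled 20, 3M, 4M and 50 for which FGF2, LIF and IGF1 were added (FLI). The series title places the work in a study of survival and elongation after slow-rate freezing, and the labels do not say which samples had been frozen, which portion of the conceptus was used, when the factors were given, or whether the samples of a group came from separate animals or cultures. The p-values therefore measure the spread between these samples, which may in part be technical. The labels also give no breed, sex or meaning for the title numbers.

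Reads counted in the 15267 genes numbered 108851495 to 152570016 per library, and shares of reads below refer to these totals. Levels are the authors' CPM, reads of a gene relative to a TMM-scaled library total. Trophectoderm genes, the outer lineage that makes up most of an elongating conceptus, were found in every sample for 12 of 12 listed markers, with summed levels of 13161 to 21417 CPM among controls and 17476 to 26048 CPM across FLI. For hypoblast and yolk sac endoderm, 7 of 8 listed markers were in the table, and they summed to 6522 CPM in control 10, 2927 CPM in control 20, 624 CPM in control 3M and 545 CPM in control 4M. In FLI the same sum was 2324 CPM in sample 20, 1211 CPM in 3M, 803 CPM in 4M and 2263 CPM in 50. Control 10 therefore had the highest endoderm level of the 8 samples, most of it from APOA1 at 6183 CPM. Its trophectoderm sum of 16300 CPM lay within the control range. Most of that sum came from the keratins KRT8 at 10694 CPM and KRT18 at 5089 CPM. CDX2, GATA2, GATA3, TFAP2A, TFAP2C and PAG2 were lowest of the 8 samples in control 10, at 6.92, 44.2, 11.7, 13.7, 24.4 and 183 CPM. TEAD4 was highest in control 10, and ELF5, HAND1 and IFNT2 were neither lowest nor highest there. In whole tissue, fewer cells of a type and less RNA per cell cannot be told apart.

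Reads of mitochondrial genes were fewest in 2 of the controls. The 19 genes took 3.21% of reads in control 10, 3.87% in control 20, 5.82% in control 3M and 6.68% in control 4M. In FLI they took 5.84% in sample 20, 6.06% in 3M, 5.66% in 4M and 5.16% in 50. Controls 10 and 20 thus lay below all FLI samples while controls 3M and 4M lay within or above the FLI range, and the groups overlapped. The control share was 4.90% ± 1.63 (SD, n = 4) and the FLI share 5.68% ± 0.385 (SD, n = 4). The log2 ratio of these means was 0.21, but 0.058 without control 10, 0.12 without control 20 and 0.40 without control 4M. Counting error was negligible beside this spread, since the widest 95% Wilson half-width was 0.00432 percentage points.

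The nuclear subunit genes varied much less. They took 1.18%, 1.25%, 1.39% and 1.34% of reads in controls 10, 20, 3M and 4M. In FLI samples 20, 3M, 4M and 50 they took 1.24%, 1.31%, 1.35% and 1.17%. The groups overlapped, with the lowest share in FLI 50 and the highest in control 3M. Mitochondrial mRNA reads per nuclear subunit read numbered 2.70 in control 10 and 3.07 in control 20, against 4.16 in control 3M and 4.94 in control 4M. In FLI the ratio was 4.64, 4.49, 4.18 and 4.34 in samples 20, 3M, 4M and 50. The FLI ratios were close together, and the control ratios extended beyond them on both sides.

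**Figure D1:**
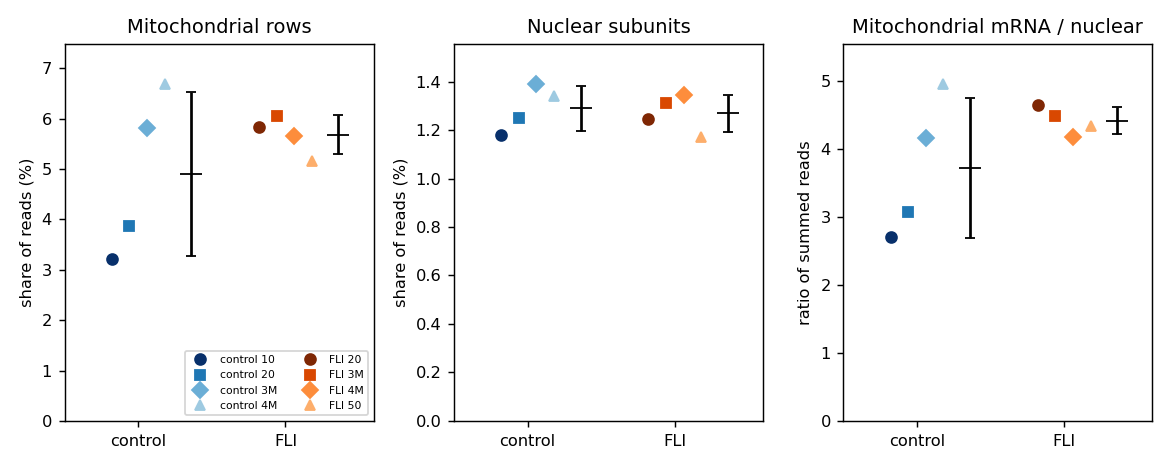
Share of reads (%) from the 19 mitochondrial genes, share from the nuclear subunit genes, and reads of mitochondrial mRNA per nuclear subunit read (ratio), by sample. Points are samples and bars are mean ± SD, n = 4 per group; controls 10 and 20, at 3.21% and 3.87%, lie below every FLI sample in mitochondrial share, and the groups overlap in all panels.

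Across the table, differences between FLI and control were tested for 11897 genes with a level of at least 1 CPM in at least 4 samples, of which 104 were members. The limma test, with Benjamini-Hochberg adjustment over all tested genes, called 0 members at an adjusted p of 0.05, where 0.0% of all tested genes were called, and the smallest adjusted p was 0.97. At an unadjusted p under 0.05 it listed 338 genes (2.84%), 4 of them members. The edgeR quasi-likelihood test on whole reads called 0 genes (374 at an unadjusted p under 0.05), and DESeq2 called 9 genes, 0 of them members. Counts, medians and levels below are therefore a description of direction and size, read beside the same numbers over all tested genes, of which 50.8% had a higher FLI mean and the median log2 difference was 0.00.

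All 13 mitochondrial protein genes had a higher mean log2 level in FLI, with log2 differences of 0.11 to 1.10 and a median of 0.46. Of 79 tested nuclear subunit genes, 66 (83.5%) had a higher mean, with a median log2 difference of 0.09 that became -0.01 when library size alone set the scale, where all genes had a median of -0.09. Without control 10 these medians were 0.29 for the mitochondrial and 0.04 for the nuclear genes, and without FLI 3M the nuclear median was also 0.04. Groups did not overlap for 2 of the 13 mitochondrial genes, ND2 and ND3, both higher in FLI, and for 0 of the 79 nuclear subunit genes. Over all tested genes, 0.841% had FLI values wholly above control and 0.605% wholly below.

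The complexes differed little from each other in their nuclear genes. Complex I had a higher FLI mean for 29 of 37 nuclear subunits, complex II for 3 of 4, complex III for 7 of 9, complex IV for 10 of 12 tested and complex V for 17 of 17. The median log2 differences were 0.08, 0.07, 0.07, 0.12 and 0.10 in that order. With library size alone as the scale, 15 of 37, 1 of 4, 2 of 9, 8 of 12 and 8 of 17 had a higher FLI mean, while the medians minus that of all genes stayed at 0.06 to 0.11. Mitochondrial subunits had medians of 0.48 for the 7 genes of complex I, 0.34 for the 3 genes of complex IV and 0.48 for both genes of complex V.

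**Figure D2:**
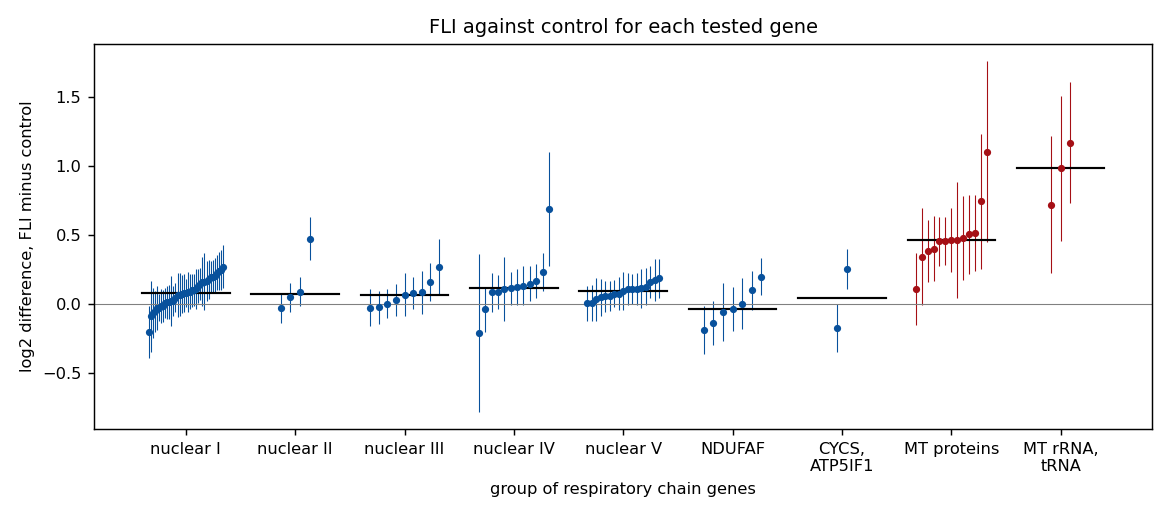
Log2 difference of FLI minus control (limma on log2 of CPM plus 0.5) for each tested gene, grouped by complex and by genome of origin. Points are genes, thin bars are ± SE and black lines are medians; nuclear complex medians lie between 0.07 and 0.12 on the authors' TMM scale (with library size alone the median over all nuclear subunits is -0.01), and the 13 mitochondrial protein genes lie between 0.11 and 1.10, with no gene past the adjusted threshold.

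Complex I holds most of the mitochondrial protein genes, whose products form its membrane arm. ND2 (ENSBTAG00000043571; ARS-UCD1.2, MT:4266-5307) was at 1616, 1466, 1978 and 2116 CPM in controls 10, 20, 3M and 4M. In FLI samples 20, 3M, 4M and 50 it was at 2171, 2424, 2772 and 2396 CPM. Every FLI value lay above every control value, although FLI 20 and control 4M were close. The log2 difference was 0.45 (SE 0.18, 95% interval 0.05 to 0.86; limma, unadjusted p = 0.0321, adjusted p = 0.97). ND3 (ENSBTAG00000043568; MT:9823-10168) was at 749, 1014, 1114 and 1079 CPM among controls and 1420, 1456, 1133 and 1377 CPM across FLI, in the same sample order. Again all 4 FLI samples were above all controls, with FLI 4M just above control 3M. Its log2 difference was 0.45 (SE 0.17; limma, unadjusted p = 0.028, adjusted p = 0.97). Higher levels in FLI at an unadjusted p under 0.05 were found for 1.89% of all tested genes.

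ND5 and ND6 had the widest spread of the mitochondrial mRNAs. They are neighbours on opposite strands, and ND6 is the only protein gene of the minus strand. ND6 (ENSBTAG00000043546; MT:13913-14440) reached only 126 and 98.4 CPM in controls 10 and 20, but 481 and 810 CPM in controls 3M and 4M. In FLI it was at 504, 878, 571 and 410 CPM in samples 20, 3M, 4M and 50. Both controls 10 and 20 fell far below the rest and control 4M was second only to FLI 3M, so the groups overlapped. FLI exceeded control by a log2 of 1.10 with an SE of 0.65 (limma, unadjusted p = 0.129, adjusted p = 0.97). ND5 (ENSBTAG00000043563; MT:12109-13929) was at 653, 543, 1623 and 2724 CPM among controls and 1675, 2437, 1932 and 1556 CPM across FLI, a log2 difference of 0.74 (SE 0.49). The same pair of controls was lowest and control 4M was highest of all samples. Without control 20 the log2 differences were 0.63 for ND6 and 0.39 for ND5, and without control 10 that of ND5 was 0.48, whereas without control 4M it was 1.17.

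The other complex I genes showed a smaller form of this pattern. ND1 (MT:3101-4056) was at 1211 and 1496 CPM in controls 10 and 20, at 2775 and 2765 CPM in controls 3M and 4M and at 2254 to 3256 CPM across FLI, a log2 difference of 0.48 (SE 0.31). ND4 (MT:10529-11906) was at 1509, 2064, 3072 and 3543 CPM among controls and at 3289 to 3764 CPM across FLI, a log2 difference of 0.51 (SE 0.28). ND4L (MT:10239-10535), which shares 7 bases with ND4, was at 239, 320, 433 and 533 CPM among controls and at 458 to 499 CPM across FLI, a log2 difference of 0.40 (SE 0.23). In each of these genes control 4M lay within or above the FLI range. Without control 10 the log2 differences of ND1, ND4 and ND4L were 0.25, 0.29 and 0.20.

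CYTB (ENSBTAG00000043550; MT:14514-15653), the mitochondrial subunit of complex III, was at 2976, 3392, 4984 and 4647 CPM in the controls. In FLI it was at 5484, 5140, 4747 and 5084 CPM. Only control 3M exceeded an FLI sample. FLI minus control was a log2 of 0.39 (SE 0.22; limma, unadjusted p = 0.121, adjusted p = 0.97).

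COX1, COX2 and COX3 form the catalytic core of complex IV. COX1 (ENSBTAG00000043561; MT:5687-7231) was the most abundant member, at 11925, 15876, 21740 and 27049 CPM in controls 10, 20, 3M and 4M. In FLI it was at 24751, 24183, 19807 and 24210 CPM. The highest and the lowest samples were both controls, and FLI 4M stood below the other FLI samples. The log2 difference was 0.34 (SE 0.35), and among the samples with titles ending in M it was -0.15.

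COX2 (ENSBTAG00000043556; MT:7374-8057), which receives electrons from cytochrome c, was at 1416, 1577, 4005 and 4383 CPM among controls and 3101, 4565, 3962 and 2523 CPM across FLI. Lowest again were controls 10 and 20, and FLI 50 was next. FLI minus control was a log2 of 0.46 (SE 0.42), and it was 0.19 without control 10 and 0.24 without control 20. COX3 (ENSBTAG00000043560; MT:8970-9750) was at 5299, 7026, 9218 and 9297 CPM among controls and 8590, 8930, 7860 and 7168 CPM across FLI. Its log2 difference of 0.11 (SE 0.26) was the smallest of the 13, and it was -0.06 without control 10 and -0.14 among titles ending in M. Controls 3M and 4M were above all FLI samples for COX3.

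ATP6 and ATP8 encode the membrane subunits of the ATP synthase that are made in mitochondria, and they share 40 bases of the same strand. ATP8 (ENSBTAG00000043564; MT:8129-8329) was at 452, 553, 854 and 845 CPM among controls and 965, 1017, 891 and 742 CPM across FLI, a log2 difference of 0.46 (SE 0.23). ATP6 (ENSBTAG00000043584; MT:8290-8970) was at 1884, 2350, 3989 and 3707 CPM among controls and 4537, 4767, 3878 and 3165 CPM across FLI, a log2 difference of 0.50 (SE 0.29). For both genes FLI 20 and FLI 3M were highest and FLI 50 lay between the lower and the upper pair of controls. How the authors' counting treated reads in the shared bases is not given in the sources used here.

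**Figure D3:**
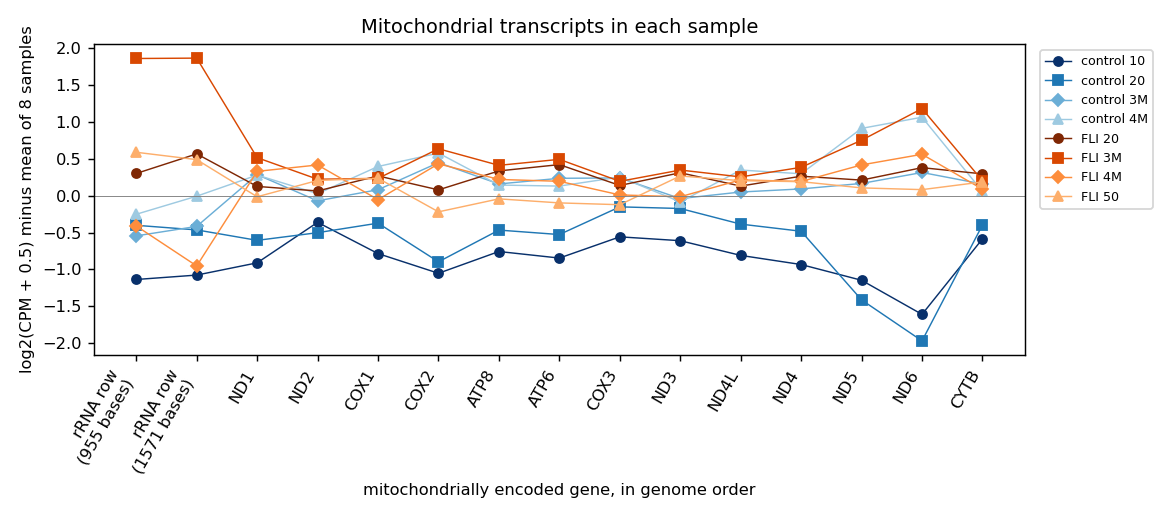
Level of each mitochondrial protein and rRNA gene in each sample, as log2 of CPM plus 0.5 minus the mean of the 8 samples, with genes in genome order. Lines join the values of a sample; controls 10 and 20 are the 2 lowest samples at all 13 protein genes, with ND5 and ND6 the most spread, and FLI 3M is highest at both rRNA genes.

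Controls 10 and 20 were the 2 lowest samples for 13 of 13 mitochondrial protein genes. Leaving out control 10 reduced the log2 difference by more than 1.5 times, or turned its sign, for 10 of the 13 genes, to between -0.06 and 0.48. The same pair was lowest for 15 of 79 nuclear subunit genes (19.0%) and for 9.63% of all tested genes. The pair was picked after its values were seen. All of the 13 genes except ND6 lie on the same strand and share long transcripts, so the genes do not count as separate observations. The median deviation of the mitochondrial genes from their mean over the samples was -0.81 on the log2 scale in control 10, -0.48 in control 20, 0.16 in control 3M and 0.28 in control 4M. In FLI samples 20, 3M, 4M and 50 it was 0.26, 0.38, 0.21 and 0.11. The nuclear subunits had medians of -0.21, -0.04, 0.08 and -0.02 in the controls and 0.08, 0.17, 0.01 and -0.03 in FLI. On the authors' TMM scale control 10 was thus low for both genomes, whereas control 20 was low for mitochondrial genes and near the mean for nuclear ones. By share of reads, FLI 50 was as low as control 10 for nuclear subunits, at 1.17% against 1.18%. Controls 10 and 20 were also the samples with the highest summed endoderm markers, at 6522 and 2927 CPM, of which APOA1 made up 6183 and 2702 CPM. FLI 20 and FLI 50 followed at 2324 and 2263 CPM. Endoderm was not alone in this. Epiblast and embryonic disc markers summed to 197 and 147 CPM in these controls, against 40.1 to 101 CPM elsewhere. Mesoderm and endometrium markers were highest in control 10 but not second in control 20. Trophectoderm, blood and leukocyte sums were highest in FLI samples. The part of cell composition in the mitochondrial levels was not tested.

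The titles end in 0 for controls 10 and 20 and for FLI 20 and 50, and in M for the other 4 samples. Among titles ending in 0, all 13 mitochondrial protein genes had a higher FLI mean, with a median log2 difference of 0.81. Among titles ending in M, 11 of 13 did, with a median of 0.09. For ND6 the log2 difference was 2.02 among titles ending in 0 and 0.18 among titles ending in M (limma test of the difference, unadjusted p = 0.00495, adjusted p = 0.678). An unadjusted p under 0.05 in that test was found for 6.08% of all genes, and 0 of 11897 passed the adjusted threshold. For nuclear subunits the medians were 0.13 and 0.07, with 62 and 58 of 79 genes higher. What the title endings mark is not given in the labels.

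Ratios between neighbouring mitochondrial mRNAs also varied among samples. Per kilobase, ND6 was at 0.668 and 0.625 of ND5 in controls 10 and 20 and at 1.02 and 1.03 in controls 3M and 4M. In FLI the ratio was 1.04, 1.24, 1.02 and 0.907 in samples 20, 3M, 4M and 50. The 2 lowest ratios of the 8 samples were those of controls 10 and 20. Per kilobase, COX2 was at 0.268, 0.224, 0.416 and 0.366 of COX1 in controls 10, 20, 3M and 4M and at 0.283, 0.426, 0.452 and 0.235 in FLI. Here the 4 samples with titles ending in 0, from both groups, were all below the 4 ending in M. COX3 made up 17.6%, 18.6%, 16.4% and 14.6% of summed mitochondrial mRNA in control and 14.4%, 14.1%, 14.5% and 13.1% in FLI, and the control and FLI ranges were 0.14 percentage points apart. Of the 22 ratios and shares between members that were computed, 2 had groups that did not overlap, this one and the ATP5MC1 share given with complex V. Many of these ratios share genes, so they do not count as separate observations. No such rate was computed for ratios of other genes.

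The mitochondrial rRNAs were measured in libraries enriched for poly-A RNA, in which rRNA is largely removed. The shorter rRNA gene (ENSBTAG00000043567; MT:431-1385, 955 bases) was at 87.3, 146, 132 and 162 CPM among controls and 237, 701, 145 and 290 CPM across FLI. FLI 3M stood far above all others and FLI 4M lay within the control range. FLI exceeded control by a log2 of 1.17 (SE 0.44; limma, unadjusted p = 0.0272, adjusted p = 0.97), and the authors' deposited table gives a log2 fold change of 1.0 with an adjusted p of 0.275. The longer rRNA gene (ENSBTAG00000043570; MT:1453-3023, 1571 bases) was at 132, 201, 208 and 277 CPM among controls and 412, 1015, 143 and 390 CPM across FLI, a log2 difference of 0.98 (SE 0.53). Without FLI 3M the log2 differences were 0.74 for the shorter and 0.53 for the longer rRNA gene. Unlike the mRNAs, the rRNAs were low in FLI 4M, below controls 20, 3M and 4M in the sum of both. That sum took 0.0232% to 0.0457% of reads in control and 0.0299% to 0.16% in FLI.

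Of the 4 tRNA genes in the table, all on the minus strand, 1 passed the filter on low levels. It lies at MT:15726-15791 (ENSBTAG00000043582) and was at 32.4, 35.2, 97.1 and 161 CPM among controls and 107, 145, 91.6 and 93.4 CPM across FLI. Again controls 10 and 20 were lowest and control 4M was highest, as for ND5. The other tRNA genes were covered by 4 to 172 reads per sample and were not tested.

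Complex II, succinate dehydrogenase, held the nuclear gene of smallest p. SDHC (ENSBTAG00000015853; chromosome 3, 8177617 to 8208058), which codes for a membrane anchor of the complex, was at 59.7, 83.1, 91.6 and 69.4 CPM in controls 10, 20, 3M and 4M. In FLI it was at 118, 102, 91.2 and 108 CPM. FLI 4M fell just below control 3M, and the other 3 FLI samples were above all controls. The log2 difference was 0.47 (SE 0.16, 95% interval 0.11 to 0.83; limma, unadjusted p = 0.0157, adjusted p = 0.97). No other nuclear subunit gene had an unadjusted p under 0.05.

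The other subunits of complex II were among the steadiest members. SDHA, the flavoprotein that oxidises succinate, was at 258 to 280 CPM among controls and 264 to 311 CPM across FLI. SDHB, the iron-sulfur subunit, was at 95.3 to 106 CPM among controls and 94.3 to 111 CPM across FLI. SDHD, the other membrane anchor, was at 133 to 150 CPM among controls and 124 to 148 CPM across FLI. The groups overlapped for all 3, and their log2 SD over the 8 samples was 0.10, 0.09 and 0.09, against 0.33 for SDHC.

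Among nuclear complex I genes, NDUFS7 and NDUFS6 had the smallest p. NDUFS7 (chromosome 7, 43805788 to 43814284), an iron-sulfur subunit near the coenzyme Q site, was at 56.5, 62.0, 66.4 and 57.4 CPM among controls and 73.9, 81.7, 69.2 and 60.1 CPM across FLI. FLI 50 lay within the control range and the other 3 FLI samples above it. FLI minus control was a log2 of 0.23 (SE 0.13; limma, unadjusted p = 0.109, adjusted p = 0.97). NDUFS6 (chromosome 20, 70839103 to 70844383), an accessory subunit, was at 79.7, 99.3, 91.0 and 70.7 CPM among controls and 109, 120, 98.3 and 83.8 CPM across FLI, a log2 difference of 0.27 (SE 0.16). FLI 4M and FLI 50 lay within the control range.

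Levels per kilobase within nuclear complex I ran from 26.8 CPM for NDUFS4 to 176 CPM for NDUFB8, as means of the 8 samples. NDUFB8, an accessory subunit of the membrane arm, was at 162 ± 14.8 CPM among controls and 186 ± 16.3 CPM across FLI (SD, n = 4), a log2 difference of 0.20 (SE 0.12), and the groups overlapped. NDUFA3, another accessory subunit, was at 40.1 to 60.6 CPM among controls and 43.2 to 60.4 CPM across FLI. NDUFS4, an accessory subunit whose loss in humans causes complex I deficiency, was at 50.2 to 58.9 and 49.1 to 59.2 CPM. For NDUFA3 and NDUFS4 the groups covered nearly the same range.

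The 7 complex I assembly factors were lower than the subunits, with a median of 12.2 CPM per kilobase against 77.2 for the nuclear subunits of complex I. Of these factors 3 had a higher and 4 a lower FLI mean, with a median log2 difference of -0.04. With library size alone this median was -0.14 and that of all genes was -0.09. NDUFAF3, which acts early in assembly, was at 24.7, 24.3, 27.2 and 22.5 CPM among controls and 29.8, 33.1, 25.7 and 25.3 CPM across FLI, a log2 difference of 0.20 (SE 0.14). NDUFAF2, a late assembly factor, was at 15.5, 15.6, 22.8 and 20.3 CPM among controls and 15.3, 15.1, 18.8 and 15.1 CPM across FLI, a log2 difference of -0.19 (SE 0.17). For NDUFAF2 the highest samples were controls 3M and 4M and FLI 4M. NDUFAF4 was at 24.2 to 38.1 CPM among controls and 21.1 to 35.5 CPM across FLI, and NDUFAF5 at 11.4 to 17.0 and 11.2 to 15.9 CPM.

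In complex III the nuclear levels per kilobase ran from 103 CPM for UQCRC2, a core subunit, to 329 CPM for UQCRB, a subunit near the quinone site. UQCR11, a small accessory subunit, was at 76.8, 92.2, 86.7 and 67.8 CPM among controls and 134, 108, 78.8 and 76.5 CPM across FLI. FLI 20 and FLI 3M were above all controls and the other FLI samples within their range. Its log2 difference was 0.27 (SE 0.20). UQCRC1, the other core subunit, was at 223, 273, 309 and 288 CPM among controls and 281, 349, 305 and 284 CPM across FLI, a log2 difference of 0.16 (SE 0.14). Control 10 was lowest and FLI 3M highest, and without both samples the difference was -0.00052.

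The remaining complex III genes named by the rule overlapped throughout. CYC1, cytochrome c1, was at 211 to 322 CPM among controls and 247 to 308 CPM across FLI. UQCR10 was at 121 to 141 CPM among controls and 125 to 159 CPM across FLI, UQCRB at 136 to 166 and 145 to 184 CPM, and UQCRC2 at 160 to 189 and 143 to 188 CPM. CYCS, the mobile carrier between complexes III and IV, was at 162, 196, 222 and 215 CPM among controls and 129, 196, 199 and 186 CPM across FLI. Its log2 difference was -0.18 (SE 0.17), with the lowest value in FLI 20.

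Complex IV has nuclear subunits with tissue-restricted isoforms, and the ubiquitous isoforms prevailed for most of them. COX4I1 was at 258 to 339 CPM among controls and 279 to 349 CPM across FLI, COX8A at 146 to 174 and 153 to 192 CPM, and COX7A2 at 103 to 139 and 117 to 138 CPM. COX6A1 was at 198 ± 19.4 CPM among controls and 222 ± 21.5 CPM across FLI (SD, n = 4), a log2 difference of 0.17 (SE 0.12). COX6B1 was at 154, 146, 168 and 155 CPM among controls and 215, 204, 160 and 159 CPM across FLI, a log2 difference of 0.23 (SE 0.13). For COX6B1, FLI 20 and FLI 3M lay above all controls, and FLI 4M and FLI 50 within their range. The isoforms COX4I2, COX6A2 and COX8B, known from lung or striated muscle, were not analysed here.

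COX7A1, the isoform of heart and skeletal muscle, was at 1.63, 1.09, 0.44 and 0.329 CPM among controls and 0.411 to 0.455 CPM across FLI. Controls 10 and 20 were again apart from the rest, here as the highest samples. Of 9 listed striated muscle markers, 5 were found in the table. Their summed level was also highest in controls 10 and 20, at 9.91 and 9.07 CPM against 2.40 to 6.49 CPM elsewhere. The markers did not all follow this order. ACTA1, ACTC1, MYH6 and MYH7 were each highest in controls 10 and 20, whereas TNNI3 was lowest in control 10 and highest in FLI 4M. The part of muscle markers in the COX7A1 level was not tested. Per kilobase COX7A1 made up at most 1.62% of COX7A1 plus COX7A2, and it was not tested because of its low level. COX6B2, known in mammals as the testis isoform, was at 5.61, 3.82, 2.14 and 1.59 CPM among controls and 9.44, 5.30, 3.39 and 3.88 CPM across FLI. Within each group the samples with titles ending in 0 included the highest one. Its log2 difference was 0.69 (SE 0.42; limma, unadjusted p = 0.134, adjusted p = 0.97), and it made up 1.05% to 4.33% of COX6B2 plus COX6B1 per kilobase.

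COX7B2 was singled out after its values were seen, as the nuclear subunit of widest spread, with a log2 SD of 0.87. It is a relative of COX7B, and in the table it is a single exon of 237 bases, so its reads may be uncertain. It was at 19.4, 11.4, 4.53 and 2.18 CPM in controls 10, 20, 3M and 4M. In FLI it was at 5.79, 5.23, 5.11 and 8.36 CPM. Per kilobase it made up 51.0%, 40.2%, 18.4% and 7.24% of COX7B2 plus COX7B in control and 21.0%, 20.5%, 22.0% and 29.3% in FLI. The control samples span this range in the reverse of their order in mitochondrial share, and the FLI samples lie between.

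**Figure D4:**
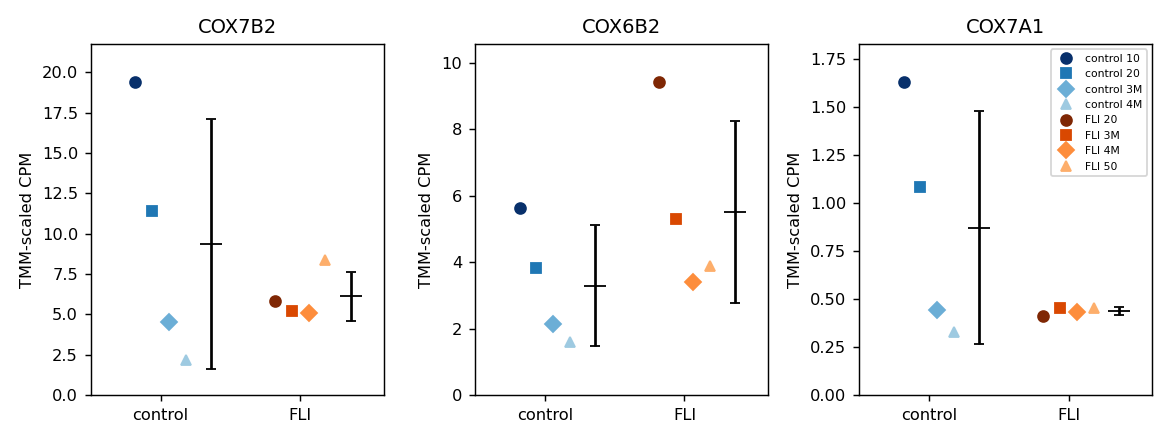
Levels (TMM-scaled CPM) of COX7B2, COX6B2 and COX7A1, the complex IV isoforms of restricted use, in each sample. Points are samples and bars are mean ± SD, n = 4 per group; controls 10 and 20 are the highest samples for COX7B2 and COX7A1, and the groups overlap for all 3 genes.

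Other complex IV genes of special roles were also measured. COX7A2L, which takes part in joining complexes III and IV, was at 146, 186, 278 and 260 CPM among controls and 174, 267, 246 and 229 CPM across FLI. Its low samples were controls 10 and 20 and FLI 20. NDUFA4, once counted in complex I and now placed in complex IV, was at 127 to 166 CPM among controls and 135 to 185 CPM across FLI. Its relative NDUFA4L2, known in human cells as induced by hypoxia, was at 0.119 to 0.304 CPM among controls and 0.0395 to 0.21 CPM across FLI, from 4 to 47 reads per sample, and was not tested.

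Complex V, the ATP synthase, had the most abundant nuclear members. ATP5F1B and ATP5F1A, the beta and alpha subunits of the catalytic head, averaged 647 and 512 CPM per kilobase over the 8 samples, followed by ATP5MC3 at 469. ATP5F1B was at 1146 to 1310 CPM among controls and 1135 to 1352 CPM across FLI. ATP5F1A was at 1050 to 1297 CPM among controls and 1137 to 1279 CPM across FLI. Both groups overlapped fully for these genes. ATP5ME, the e subunit and the lowest of the complex per kilobase at 62.9 CPM, was at 71.9 ± 8.88 CPM among controls and 74.0 ± 12.7 CPM across FLI (SD, n = 4).

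All 17 nuclear genes of complex V had a higher FLI mean on the authors' scale, by log2 differences of 0.00 to 0.18, against 8 of 17 with library size alone. ATP5MC1 was at 121, 150, 170 and 163 CPM among controls and 158, 199, 169 and 158 CPM across FLI, a log2 difference of 0.18 (SE 0.14). ATP5MF, the f subunit, was at 139, 151, 170 and 151 CPM among controls and 186, 183, 157 and 157 CPM across FLI, a log2 difference of 0.16 (SE 0.12). The groups overlapped for both. ATP5IF1, which inhibits ATP hydrolysis by the enzyme, was at 134, 125, 143 and 130 CPM among controls and 198, 172, 137 and 136 CPM across FLI. FLI 20 and FLI 3M stood above all controls, and the log2 difference was 0.25 (SE 0.14; limma, unadjusted p = 0.114, adjusted p = 0.97).

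The genes ATP5MC1, ATP5MC2 and ATP5MC3, encode the same mature c subunit of the proton-driven ring. ATP5MC3 made up 57.8% to 61.0% of their summed level per kilobase in control and 54.1% to 59.6% in FLI. ATP5MC1 made up 14.5%, 14.9%, 15.2% and 16.0% in controls 10, 20, 3M and 4M. In FLI samples 20, 3M, 4M and 50 it made up 16.2%, 17.4%, 16.3% and 16.0%. All FLI shares of ATP5MC1 lay above all control shares, by a margin of 0.031 percentage points between control 4M and FLI 50. The levels themselves were at 163 to 241 CPM among controls and 192 to 230 CPM across FLI for ATP5MC2, and at 421 to 536 and 435 to 547 CPM for ATP5MC3.

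Levels per kilobase separated the genomes more than the complexes. The median over mitochondrial protein genes was 3375 CPM per kilobase, and over tested nuclear subunits 115. COX1 and COX3 were at 13717 and 10146 CPM per kilobase, and ND5 was the lowest mitochondrial mRNA at 902. Even ND5 exceeded the highest nuclear subunit, ATP5F1B at 647. Nuclear medians were 77.2 for complex I, 92.9 for complex II, 213 for complex III, 152 for complex IV and 255 for complex V. Exon length in the table counts every annotated exon, which lowers the value per kilobase of genes with exons that were not used.

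**Figure D5:**
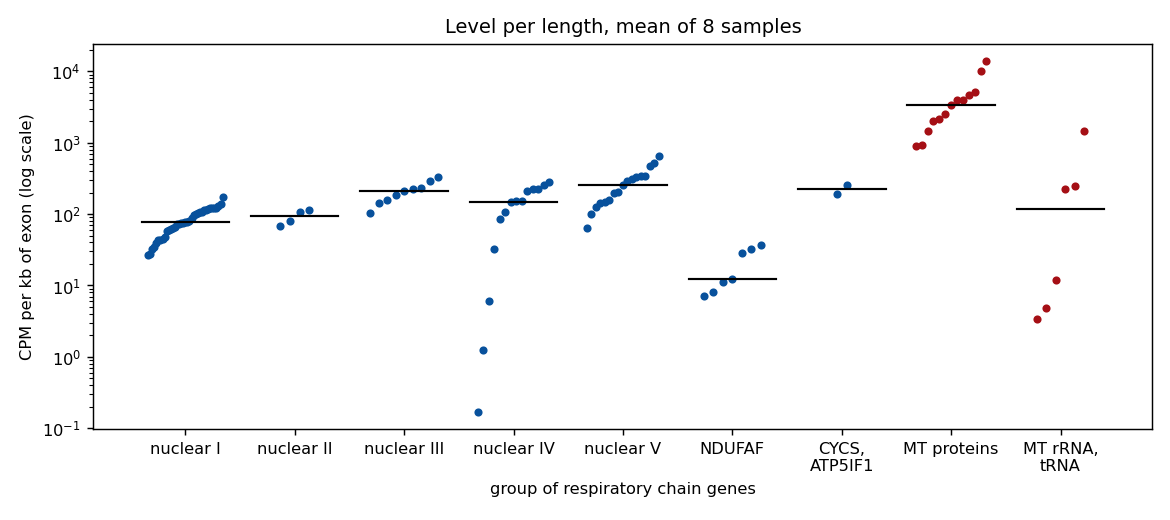
Mean level of each member over the 8 samples in CPM per kilobase of exon (log scale), by complex and genome of origin. Points are genes and black lines are medians over all members of the group, untested ones included; mitochondrial mRNAs lie between 902 and 13717, above every nuclear subunit.

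Single samples also weighed on the small nuclear differences. Of 15 named nuclear genes whose log2 difference exceeded its SE, 10 moved by more than 1.5 times when 1 sample was left out. Without FLI 20 these were CYCS, UQCR11, COX6B1, COX6B2 and ATP5IF1, at -0.028, 0.11, 0.15, 0.41 and 0.15. Without FLI 3M, UQCRC1, ATP5MC1 and NDUFAF3 were at 0.094, 0.11 and 0.12, and without control 10, CYCS, UQCRC1, ATP5MC1 and COX6A1 were at -0.27, 0.066, 0.083 and 0.11. NDUFAF2 was at -0.085 without control 3M and COX6B2 at 0.44 without control 4M.

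Within-genome steadiness also differed. Over the 8 samples the median log2 SD was 0.17 for nuclear subunits, 0.41 for mitochondrial protein genes and 0.31 for all tested genes. Of the 79 nuclear subunits, 73 were below the all-gene median, and 11 of the 13 mitochondrial protein genes were above it. The median level per kilobase was 115 CPM for nuclear subunits and 10.2 CPM for all tested genes. The SD was not compared at matched level. ATP5PB, a stalk subunit of complex V, was the steadiest nuclear subunit, with a log2 SD of 0.07. On the authors' TMM scale, control 10 had the lowest value for 48 of the 79 nuclear subunits and FLI 3M the highest for 32. Over all genes they were lowest and highest for 3364 and 1434 of 11897. These are the 2 samples whose removal together left a nuclear median of -0.00118.

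Exon bases are shared with another gene by 22 members. All 13 nuclear ones share with a gene on the opposite strand, by up to 439 bases, and the libraries were stranded per the labels, but the strand setting of the counting is not given in the sources used here. Of the 9 mitochondrial ones, ND5 and ND6 share 17 bases on opposite strands.

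Genes that act on the respiratory chain without being members were also examined as lists, and 0 of them passed the adjusted threshold. Of 30 tested genes for transcription and maintenance of mitochondrial DNA, 9 had a higher and 21 a lower FLI mean. Their median log2 difference was -0.06 (-0.15 with library size alone), and that of the mitochondrial mRNAs was 0.46 (0.36). The list was not lower among titles ending in 0, where 17 of 30 were higher with a median of 0.04, and the mitochondrial median was 0.81. Among titles ending in M 7 of 30 were higher, with a median of -0.09, and the mitochondrial median was 0.09. The genes of smallest p in that list were FASTKD1, a mitochondrial RNA-binding protein, at 27.8 ± 3.97 CPM among controls and 23.0 ± 4.79 CPM across FLI, and MTERF2, at 3.89 ± 0.816 and 4.88 ± 0.563 CPM. Of 16 regulators of mitochondrial biogenesis, 12 were tested and 5 had a higher FLI mean, with a median of -0.05. PPARGC1A, the coactivator known as a driver of biogenesis, was at 1.98, 6.58, 5.70 and 7.33 CPM among controls and 11.7, 5.54, 11.1 and 5.20 CPM across FLI, with control 10 lowest. SIRT3, a mitochondrial deacetylase, was at 1.39 ± 0.372 CPM among controls and 2.41 ± 1.37 CPM across FLI.

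A list of assembly genes for complexes II to V also held the complex I assembly genes ACAD9, ECSIT, TMEM126B, TIMMDC1, FOXRED1 and NUBPL. In this mixed list 26 of 41 tested genes had a higher FLI mean, with a median of 0.04. With library size alone 14 of 41 did, with a median of -0.06. In that list CMC1, an assembly factor of complex IV, was at 7.79 ± 1.48 CPM among controls and 6.13 ± 0.674 CPM across FLI. ACAD9, an assembly factor of complex I, was at 38.9 to 45.0 and 43.3 to 64.6 CPM. Genes for coenzyme Q synthesis, mitochondrial carriers and the tricarboxylic acid cycle had a higher mean for 24 of 37 tested, with a median of 0.03. With library size alone 9 of 37 did, with a median of -0.07. All tested genes had a median of -0.09 on that scale, and the assembly and coenzyme Q lists lay above it by 0.04 and 0.02. COQ8B, of coenzyme Q synthesis, was at 14.2 ± 1.30 CPM among controls and 17.0 ± 1.61 CPM across FLI, and COQ2, which attaches the side chain of coenzyme Q, was at 29.6 ± 4.84 and 36.5 ± 6.14 CPM. Neither difference passed the adjusted threshold of the limma test.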

How the data were processed

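Per the labels' protocols, libraries were poly-A enriched and stranded. Tools listed in the submitters' processing notes are FastQC, HISAT2, featureCounts and edgeR, with build ARS-UCD1.2, listed with no version. The signal deposited by the authors is CPM after TMM scaling: 100% of values are whole multiples of 1 read within 0.001, and 1 read is 0.00646 to 0.00987 CPM. The lowest total of a gene over the libraries was 112 reads, so genes with fewer reads were not analysed here. Per gene, the authors also deposited the log2 change and log2 CPM, the score of a likelihood ratio test, p-values with adjusted values, and gene coordinates and exon length, per the file headers.

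Because these values are normalized, limma 3.58.1 in R 4.3.3 (eBayes with trend) was run on log2(value + 0.5) for genes reaching a value of 1 in 4 or more samples, two-sided, with Benjamini-Hochberg adjustment over all tested genes and a threshold of 0.05. A fold change on this scale understates the change of low genes. The edgeR 4.0.16 quasi-likelihood test and DESeq2 1.42.0 were run on the recovered reads as alternatives. Wilson intervals (95%) cover counting error only.

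The members and lists were chosen with earlier results of these data known. Named genes were all mitochondrial protein and rRNA genes, the SDH genes, CYC1, CYCS, isoform pairs, members whose groups did not overlap and, per complex, the 2 of smallest p, the 2 of highest and the 1 of lowest level per kilobase. For these 53 genes log2 differences are printed where they exceed their SE, and for every mitochondrial gene. The numbers 20, 3M and 4M occur in both groups: the correlations of their deviations from group means were 0.133, 0.351 and 0.359. Equal numbers also share the title's last character. Control and FLI samples with the same last character but different numbers correlated at 0.155 to 0.312. Those with different last characters correlated at -0.385 to 0.0284. Whether equal numbers add to the shared last character was not tested.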

Additional observations from a re-analysis of the deposited data

Results flagged for a closer look

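In groups of 4 samples, 6 of 126 groups checked held a sample whose gap to its nearest neighbour exceeded the 95% critical value of Dixon's test, and chance alone gives about 1 in 20. COX1 was at 19807 CPM in FLI 4M and at 24183 to 24751 CPM in the other FLI samples. SDHB was at 94.3 CPM in FLI 4M and at 108.9 to 110.5 CPM in the others. NDUFAF2 was at 18.8 CPM in FLI 4M and at 15.1 to 15.3 CPM in the others. COX7B2 made up 29.3% of COX7B2 plus COX7B per kilobase in FLI 50 and at most 22.0% in the other FLI samples. ATP5MC2 made up 27.0% of the c subunit genes in control 3M, against 24.5% to 24.7% in the other controls. It made up 29.7% in FLI 20, against 24.4% to 25.3% in the other FLI samples.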

How the results depend on the processing

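Under the alternatives run, 0 genes were called by every fit except DESeq2, with 9, and 0 members were called in any. The nuclear subunit median of 0.09 was -0.013 with library size alone, where the median of all genes moved to -0.09, and -0.00118 without control 10 and FLI 3M, a setting chosen after seeing the data. Leaving out 1 sample each gave 0.04 to 0.13 for the nuclear and 0.29 to 0.59 for the mitochondrial median. The log2 ratio of FLI to control in mitochondrial share was 0.21, but 0.64 among titles ending in 0 and -0.093 among titles ending in M. COX1 was at -0.15 and COX3 at -0.14 among titles ending in M. COX3 ranged from -0.059 to 0.21 with 1 sample left out, and was at -0.11 without control 10 and FLI 3M. UQCRC1 was at -0.00052 in that last setting. The causes were not tested. With the replicate block on the 6 samples of equal number, the paired medians were 0.06 for nuclear and 0.34 for mitochondrial genes, 0 genes were called (806 at an unadjusted p under 0.05, against 197 without the block in limma), and no call changed. Depth was not limiting for the tested members, of which the lowest count in a library was 213 reads.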

Other observations

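Some nuclear subunit genes lie on the X chromosome of ARS-UCD1.2, and they were singled out after their values were seen. NDUFA1 (chromosome X, 4220533 to 4223698), an accessory subunit of complex I, was at 67.4, 39.8, 36.8 and 61.5 CPM in controls 10, 20, 3M and 4M and at 50.9, 46.0, 33.0 and 61.4 CPM in FLI samples 20, 3M, 4M and 50. NDUFB11, also of complex I, was at 58.5, 45.8, 47.8 and 66.3 CPM in control and at 55.9, 53.9, 45.8 and 53.2 CPM in FLI. COX7B was at 98.8, 89.8, 107 and 148 CPM in control and at 115, 107, 95.7 and 107 CPM in FLI. Control 4M was the highest sample for NDUFB11 and COX7B, and FLI 4M was the lowest for NDUFA1 and NDUFB11. NDUFA1 had the widest spread of the nuclear complex I genes, with a log2 SD of 0.38. Control 10, on the TMM scale the lowest sample for 48 of 79 nuclear subunits, was its highest. The groups overlapped for each of these genes.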
